A study of Mus musculus with 6 samples.

Results

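The Ifit genes (Ifit1, Ifit2 and Ifit3) and the Ifitm genes (Ifitm1, Ifitm2, Ifitm3 and Ifitm6) are 2 families of interferon-induced antiviral genes, and their transcripts were followed here in mouse leukaemia cells given an inhibitor of the histone methyltransferase G9a. They are 7 of the 19937 genes measured. Their rows were chosen by the annotation and by brightness: of the array probe sets assigned to that gene alone, the one with the highest mean over the 6 arrays was taken. The cells were haematopoietic stem and progenitor cells transformed by HoxA9 and Meis1 and grown in serum with the cytokines IL3, IL6 and SCF, conditions that all 6 samples share. For 5 days 3 samples received the solvent DMSO and 3 received UNC0638, a small molecule that inhibits G9a and its partner GLP. The label "A9M cells" covers all 6 samples, and nothing in the labels says whether they were separate cultures or transductions, so a p-value here reflects only how far these samples scatter, and that scatter may be technical. The labels give no batch and no dose. The families were selected on values of the difference between UNC0638 and DMSO that were already known, so that difference is given as a description. An adjusted p says where a gene lies in the limma fit of all genes and is no independent evidence for the families.

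Ifit proteins are cytosolic, built of tetratricopeptide repeats, and bind viral RNA whose 5′ end lacks the marks of the cell's own messages. In doing so they block its translation. Ifitm proteins are small membrane proteins of the cell surface and endosomes that hinder the fusion of viral and cellular membranes. Both families are switched on by interferon through a transcription factor complex that includes Stat2 and Irf9 and binds a promoter element known as the interferon-stimulated response element, ISRE. Ifitm genes are also known to be expressed in stem and progenitor cells without interferon.

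The ISRE core, GAAANNGAAA on either strand, was looked for in the RefSeq promoter windows of GRCm38.p6, which run from 250 bases before a gene's start over 50 bases from the start on. All 7 members had a window, and 4 of them held a match, 2 of the 3 Ifit and 2 of the 4 Ifitm genes. Of all 32851 windows 3.44% held one, and of the 27025 genes with a window 3.99% did. The stretches with the matches are shown 5′ to 3′ on the gene's strand, since the members differ in whether they hold this core. Capitals mark the ISRE core.
Ifit1: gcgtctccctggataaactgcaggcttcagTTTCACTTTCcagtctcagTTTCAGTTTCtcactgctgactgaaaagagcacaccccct
Ifit3: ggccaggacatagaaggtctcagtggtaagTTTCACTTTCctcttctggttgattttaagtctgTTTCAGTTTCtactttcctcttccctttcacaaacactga
Ifit3b: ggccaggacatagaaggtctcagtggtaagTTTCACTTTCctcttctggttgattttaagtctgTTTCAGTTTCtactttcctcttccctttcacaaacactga
Ifitm2: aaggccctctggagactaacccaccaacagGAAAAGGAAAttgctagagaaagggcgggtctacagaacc
Ifitm3: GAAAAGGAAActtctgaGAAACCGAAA

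The Ifit1 stretch lies at chr19:34640755-34640843 on the plus strand, and its matches begin 104 and 85 bases before the start. That of Ifit3 lies at chr19:34583343-34583446 on the plus strand, with matches beginning 156 and 122 bases before the start. Ifit3b, a close relative of Ifit3 that is no member, carries the same letters at chr19:34607739-34607842 on the plus strand. Over 260 aligned bases the windows of Ifit3 and Ifit3b were 99.6% identical. The Ifitm2 stretch, at chr7:140955968-140956037 on the minus strand, has 1 match, 46 bases before the start. In Ifitm3, at chr7:141010716-141010742 on the minus strand, both matches lie just past the annotated start, at 2 and 19 bases from it. These letters were not found in the windows of Ifit2, Ifitm1 and Ifitm6, which says only that they are not in those windows.

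After UNC0638, Ifit1 and Ifit3 fell, Ifit2 was lower without passing the threshold, and none of the 4 Ifitm genes passed it in either direction. With limma over all genes, 2 of 3 Ifit and 0 of 4 Ifitm genes had an adjusted p under 0.05, where 0.672% of all genes did (0.301% lower and 0.371% higher). At an unadjusted limma p under 0.05 the counts were 3 of 3 and 0 of 4, against 12.7% of all genes. Since the contrast led to the choice of the families, nothing is read from these shares.

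Ifit1, the member that binds foreign RNA ends, had intensities of 66.8, 115 and 111 in DMSO and of 30.6, 29.1 and 30.2 in UNC0638. The UNC0638 values lay close together and below all DMSO values, while DMSO 1 was clearly under the other DMSO arrays. The means were 97.7 ± 26.8 and 29.9 ± 0.764 (SD, n = 3 each). On the scale of log2(intensity + 16), used for every difference below because it damps the noise of dim probes, the difference was -1.28 (SE 0.16, limma adjusted p = 0.0183), or 2.43-fold. Ifit3, a relative built of the same repeats, read 55.3, 71.5 and 52.9 in DMSO and 20.2, 26.2 and 32.4 in UNC0638. The groups did not overlap, and here DMSO 2 was the highest. Its difference was -0.85 (SE 0.13, limma adjusted p = 0.0361), from 59.9 ± 10.1 to 26.3 ± 6.08 (SD, n = 3 each). The UNC0638 arrays had lower quartiles of 21.6, 22.8 and 22.4 and medians of 53.4, 54.9 and 52.7. Ifit1 and Ifit3 were thus dim there, and Ifit3 on UNC0638 1 was below the lower quartile. Ifit2, another RNA-binding relative, read 139, 129.8 and 148 in DMSO and 86.4, 87.1 and 124.7 in UNC0638. The groups again did not overlap, but UNC0638 3 came within a short distance of the lowest DMSO array. Its difference was -0.44 (SE 0.13, limma adjusted p = 0.196). It ran from -0.36 without UNC0638 1 to -0.59 without UNC0638 3, and was -0.32 with a pseudocount of 64. In 7.4% of all genes every UNC0638 array lay below every DMSO array, as in these 3, and in 9.59% above.

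**Figure D1:**
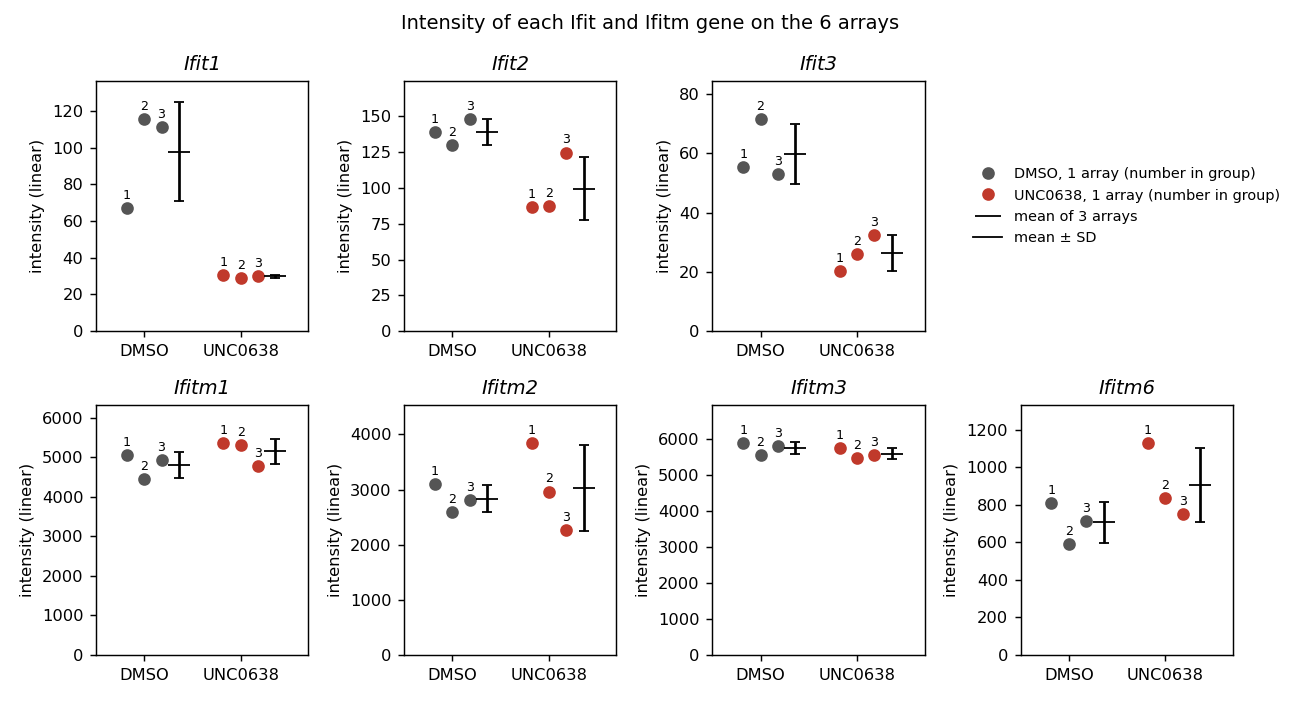
Deposited intensity (linear axis from 0) of each member on the 3 DMSO and 3 UNC0638 arrays; points are arrays with their number in the group, bars the mean ± SD. The UNC0638 arrays lie below all DMSO arrays for Ifit1, Ifit2 and Ifit3, while the groups overlap for Ifitm1, Ifitm2, Ifitm3 and Ifitm6.

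The calls of Ifit1 and Ifit3 depended on the pseudocount and on single arrays, while the sign did not change under any setting. Calls among all genes fell as well, from 134 to 49 with a pseudocount of 64 and to 10 to 69 with 1 array left out. Their loss is thus not particular to these 2 genes. With a pseudocount of 64 the differences shrank to -0.77 for Ifit1 (adjusted p = 0.0873) and -0.46 for Ifit3 (adjusted p = 0.0935), and with 1 they grew to -1.63 and -1.17. Leaving out 1 array ended the call of Ifit3 each time (adjusted p from 0.06 without UNC0638 3 to 0.141 without UNC0638 2). That of Ifit1 was lost each time except without DMSO 1, where its difference was -1.49 (adjusted p = 0.0028). Without DMSO 2 or DMSO 3 the adjusted p of Ifit1 was 0.0576 and 0.0585, and without UNC0638 1, 2 or 3 it was 0.0827, 0.0943 and 0.0734. Since the groups of these genes do not overlap, their sign could not turn when an array was left out or the pseudocount changed. Several other settings leave the difference itself unchanged.

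**Figure D2:**
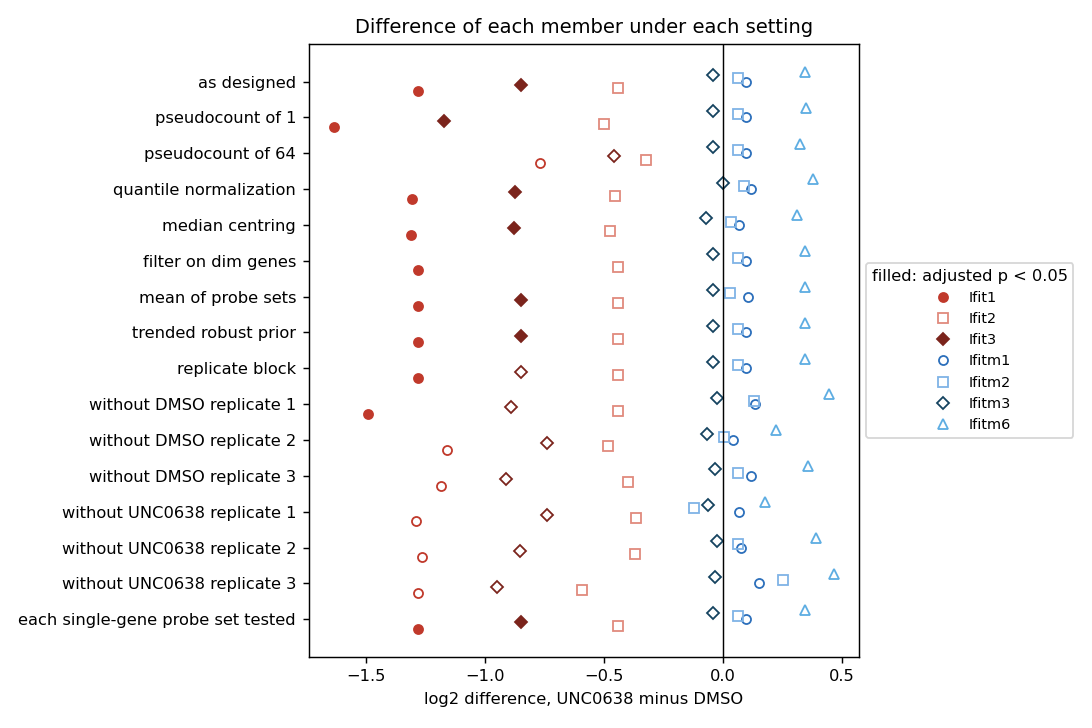
Log2 difference (UNC0638 minus DMSO, horizontal axis) of each member under each setting (vertical axis); filled points have a limma adjusted p under 0.05. Ifit1 runs from -1.63 to -0.77 and Ifit3 from -1.17 to -0.46, and the Ifitm genes stay between -0.12 and 0.47 with no filled point.

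Ifitm3, the best known restriction factor of the family, read 5884, 5559 and 5803 in DMSO and 5755, 5473 and 5537 in UNC0638. The groups overlapped and the arrays varied little, with a difference of -0.041 (SE 0.074) and a 95% interval of -0.21 to 0.13. Ifitm1, which acts mostly at the cell surface, read 5064, 4443 and 4921 in DMSO and 5362, 5308 and 4784 in UNC0638. Its difference was 0.099 (SE 0.088) with an interval of -0.10 to 0.30, and UNC0638 3 lay among the DMSO arrays. Ifitm2, a close relative of Ifitm3, read 3092, 2594 and 2817 in DMSO and 3846, 2964 and 2273 in UNC0638. The UNC0638 arrays were both the highest and the lowest of the 6, and the difference of 0.066 (SE 0.17) had an interval of -0.33 to 0.46. Ifitm6, a mouse member known from macrophages, read 812, 591 and 717 in DMSO and 1131, 838 and 753 in UNC0638. It was the Ifitm gene with the greatest difference, 0.34 (SE 0.16), with an interval of -0.031 to 0.72 and overlapping groups, and it was 0.18 without UNC0638 1 and 0.22 without DMSO 2. The limma adjusted p-values of Ifitm1, Ifitm2, Ifitm3 and Ifitm6 were 0.732, 0.936, 0.894 and 0.45. The lower bounds of these 4 intervals, -0.33 at the lowest, lay above the -0.44 of Ifit2, whose own interval ran from -0.74 to -0.14 and so overlapped those of Ifitm2 and Ifitm3.

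The Ifitm probe sets were among the brightest of the arrays. Averaged over the 6 arrays, Ifitm1, Ifitm2 and Ifitm3 stood at the 99.6th, 98.7th and 99.8th percentile of all genes and Ifitm6 at the 91.6th. Ifit1, Ifit2 and Ifit3 were at the 42.3rd, 62.3rd and 35.2nd. Intensities of different probe sets are no measure of relative transcript number, and whether the bright Ifitm probes still respond in proportion was not tested. The brightest probe set on any array reached 19527.

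Probe sets that were not chosen gave a second reading of 2 members. A further probe set of Ifitm1 went from 4198 ± 131 to 4532 ± 80.6 (SD, n = 3 each), and 2 further ones of Ifitm2 from 2463 ± 35.7 to 2588 ± 256 and from 1759 ± 152 to 1727 ± 373. Their differences of 0.11 (SE 0.072), 0.066 (SE 0.092) and -0.044 (SE 0.15) were as small as those of the probe sets used. The groups of the further Ifitm1 probe set did not overlap. Its lowest UNC0638 array, at 4451, lay above its highest DMSO array, at 4349. Among all genes 9.59% had every UNC0638 array above every DMSO array. In all 3 probe sets of Ifitm2 the order within the UNC0638 arrays was the same, with UNC0638 1 highest and UNC0638 3 lowest. The annotation lists the same transcripts for these 3 probe sets, so they may share sequence and are not independent.

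Other genes of both families, which were not part of the choice, are measured for 5 further symbols, and 0 of them passed the limma threshold. Ifit3b read 9.50, 13.7 and 6.33 in DMSO and 5.73, 9.96 and 6.36 in UNC0638, where the lower quartiles of the arrays lie at 20.9 to 22.8. Ifit1bl2 read 9.80, 8.75 and 9.47 in DMSO and 10.2, 8.28 and 24.2 in UNC0638, so UNC0638 3 alone stood out. Both were at the dim end of the arrays, where little room is left for a fall. The promoter stretch of Ifit3b equals that of Ifit3, and the Ifit1bl2 window overlaps that of Ifit1 by 245 bases with the same pair of ISRE cores read from the other strand. Whether the probe sets of Ifit1 and Ifit3 also read these relatives was not tested, so their values are uncertain to that extent. Ifitm5, a bone-forming member, Ifitm7 and Ifitm10 had differences of 0.10 (SE 0.095), -0.012 (SE 0.11) and 0.16 (SE 0.088).

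The Ifit genes lie in a cluster on chromosome 19 and the Ifitm genes on chromosome 7, which allowed their neighbours to be read. Of the 8 nearest measured protein-coding genes around the Ifit cluster, 0 fell and 1 rose past the limma threshold. Among all genes 0.301% fell and 0.371% rose. These 8 reached as far as 295 kb from the cluster (Acta2) before it and 1308 kb (Htr7) after it. The 8 around the Ifitm cluster lay within 84.3 kb. Acta2, a smooth muscle actin, rose from 86.3 ± 8.25 to 163 ± 27.6 (SD, n = 3 each; log2 difference 0.80, SE 0.12, limma adjusted p = 0.0336), a call lost with a pseudocount of 64 and without each array except UNC0638 3 (adjusted p from 0.0694 to 0.114). On that side of the cluster the lysosomal lipase gene Lipa, its nearest neighbour, was at 0.50 (adjusted p = 0.0776) and the death receptor gene Fas at 0.44 (adjusted p = 0.128). The interferon-induced cholesterol hydroxylase gene Ch25h was at 0.010, with a mean DMSO intensity of 22.6. On the other side Slc16a12, Pank1, Kif20b and Htr7 were between -0.13 and 0.058. Around the Ifitm cluster 0 of 8 neighbours passed, with differences from -0.25 for B4galnt4 to 0.10 for Ifitm5, and Pgghg, Nlrp6, Cox8b, Pkp3, Sigirr and Ano9 in between. Of the 8 genes beside the Ifit cluster 3 lay below 0 (9186 of 19937 among all genes), the lowest at -0.13, and none was as low as Ifit2. The gene table served to find neighbours only, since the array annotation names no build.

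**Figure D3:**
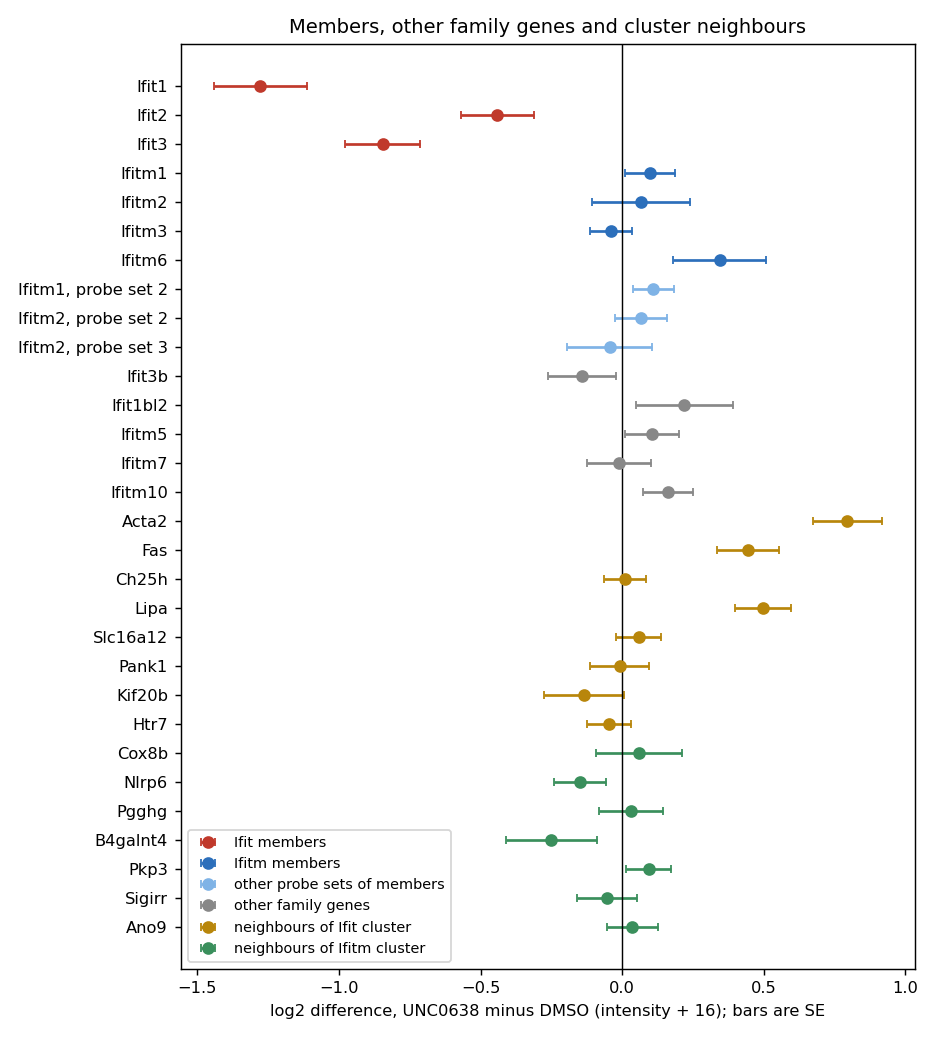
Log2 difference (UNC0638 minus DMSO, horizontal axis, bars are SE) of the members, of further probe sets of Ifitm1 and Ifitm2, of other family genes and of the nearest genes around each cluster in chromosomal order (Ifitm5, also a neighbour, is drawn with the family genes). Ifit1 (-1.28), Ifit3 (-0.85) and Ifit2 (-0.44) are the 3 lowest, and Acta2 (0.80) is the highest.

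Genes of interferon signalling and induction were divided, and none of those that carry the signal from receptor to promoter passed the threshold. These were Ifnar1, Ifnar2, Jak1 (difference 0.12), Tyk2 (0.0049), Stat2 and Irf9. Of 27 measured genes of interferon signalling and induction, 3 fell and 0 rose (limma, beside 0.301% lower among all genes). An unadjusted limma p under 0.05 was found for 12 of the 27, in both directions, and for 12.7% of all genes. Among the 27, 11 lay below 0, beside 9186 of all 19937 genes. Their median difference was 0.033, beside 0.012 for all genes. The 3 were Usp18, which damps signalling at the interferon receptor, and the RNA sensor genes Ddx58, encoding RIG-I, and Dhx58, encoding LGP2. In limma their differences were -1.37 (SE 0.13, adjusted p = 0.00684), -0.81 (SE 0.11, adjusted p = 0.0247) and -0.71 (SE 0.12, adjusted p = 0.0437). All 3 are themselves interferon-induced. The count of 3 became 0 without UNC0638 1, 1 without DMSO 2, DMSO 3, UNC0638 2 or UNC0638 3, and 1 with a pseudocount of 64. Calls among all genes fell as well, from 134 to 10, 43, 69, 31, 40 and 49 in the same order. Irf9 was at -0.44 (SE 0.17, adjusted p = 0.321) and Stat2 at -0.13 (SE 0.075, adjusted p = 0.535). The other interferon regulatory factor genes of the list did not share a direction and none passed. Irf7 was at -0.53 (SE 0.12, adjusted p = 0.11), with groups that did not overlap, Irf3 at 0.0060, and Irf8, Irf2, Irf1 and Irf5 at 0.21, 0.21, 0.36 and 0.36. The receptor genes Ifnar1 and Ifnar2 had differences of 0.073 (SE 0.078) and 0.040 (SE 0.11), and the interferon gene Ifnb1 read 19.4 ± 2.52 in DMSO and 18.1 ± 3.26 in UNC0638 (SD, n = 3 each), below the arrays' lower quartiles.

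Among 38 measured interferon-induced effectors, 8 fell and 0 rose, 33 lay below 0, and the median was -0.32. Of all 19937 genes 0.301% fell and 9186 lay below 0, with a median of 0.012. An unadjusted limma p under 0.05 was found for 22 of the 38, among them Trim21, which lay higher, and for 12.7% of all genes. Among the 8, Rtp4, Oasl2, Xaf1 and Lgals3bp had the greatest falls, with differences of -2.86, -2.10, -1.02 and -0.93, and the others were Bst2, Oas2, Eif2ak2 and Oas3. The call of Rtp4 held in all 15 alternatives, that of Oasl2 was lost without UNC0638 1 (adjusted p = 0.0682) and with a pseudocount of 64 (0.0615), and that of Xaf1 was lost in 9, among them each array left out except DMSO 1. Set in this order, Ifit1 came after Oasl2 and Ifit3 between Bst2 and Oas2. The effectors that did not pass ran from -0.93 for Oas1a, whose groups did not overlap, over Irgm1 (-0.62) and Ifi35 (-0.60) to Samhd1 (0.13) and Trim21 (0.35), and the Ifitm genes lay within the upper part of that range. Set against the DMSO mean, the list averaged -0.12, 0.066 and 0.052 in DMSO and -0.48, -0.46 and -0.41 in UNC0638. DMSO 1, the DMSO array where Ifit1 was low, was the lowest of its group for 19 of the 38, and for 36.3% of all genes. Of the 28 effectors with a promoter window, 11 held the ISRE core, 3 of the 6 that fell and 8 of the 22 that did not pass. Among all tested genes with a window it was 607 of 15613. The count of 8 became 1 without UNC0638 1, 2 without UNC0638 2 or with a pseudocount of 64, 3 without DMSO 2 or UNC0638 3, and 4 without DMSO 3 or with the replicate block. Calls among all genes fell as well, from 134 to 10, 31, 49, 43, 40, 69 and 73 in the same order.

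**Figure D4:**
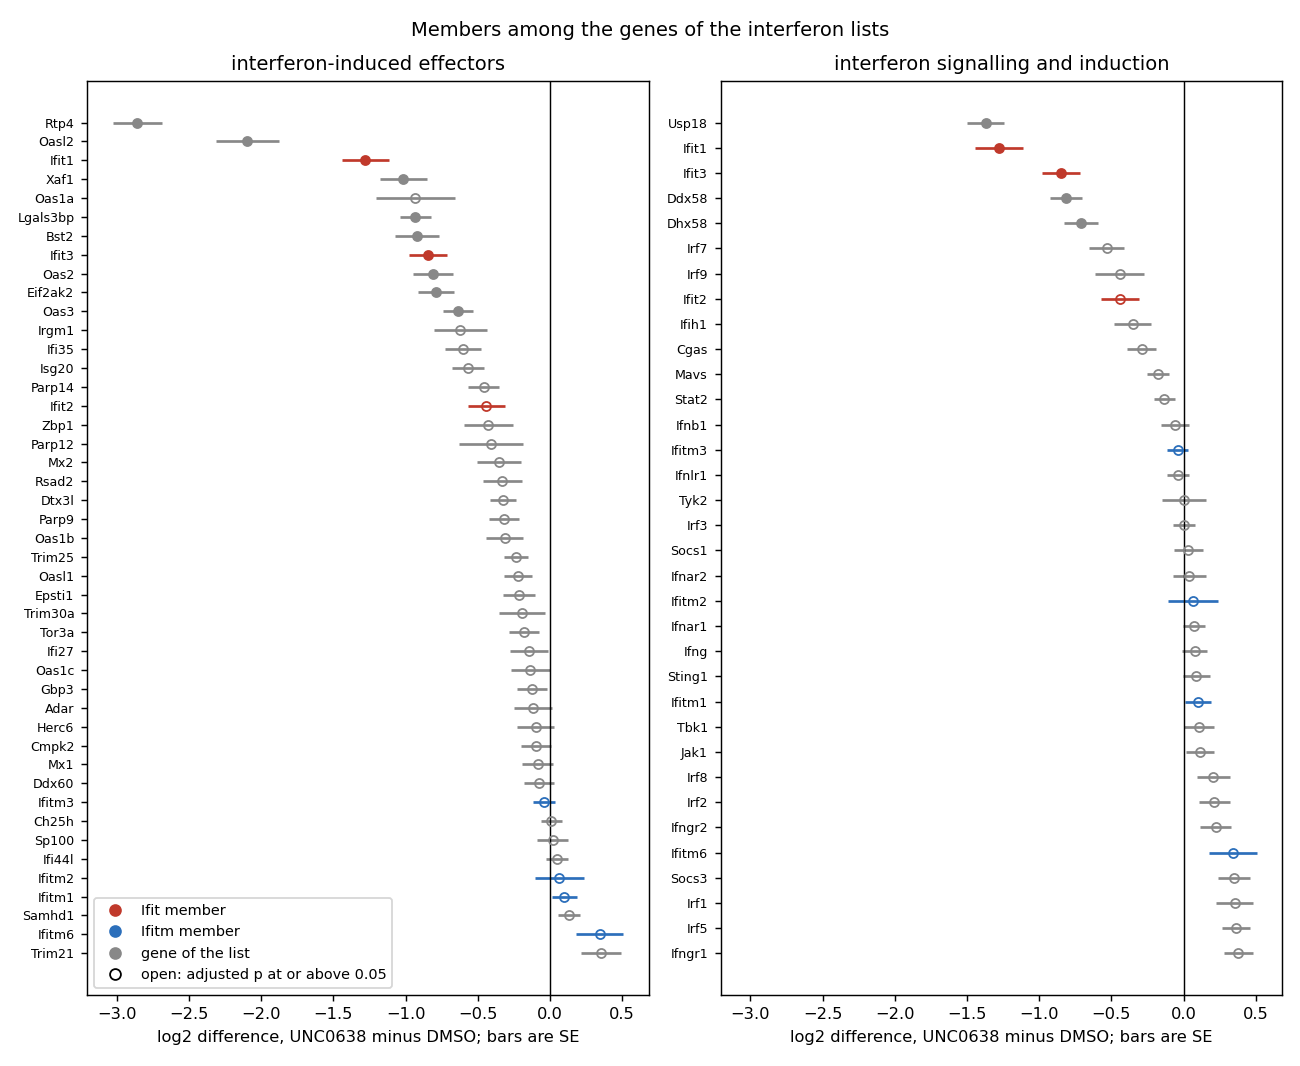
Log2 difference (UNC0638 minus DMSO, horizontal axis, bars are SE) of the members among 38 interferon-induced effectors (left) and among 27 genes of interferon signalling and induction (right), sorted; filled points have a limma adjusted p under 0.05. The Ifit members sit among the lower genes and the 4 Ifitm members near 0 or above it in both panels.

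The cellular machinery on which each family acts did not pass the test. Ifit proteins hinder translation through the initiation factor eIF3 and cap binding. Of 13 measured genes of these factors 0 passed, 13 lay below 0, the median was -0.21 and 6 had an unadjusted limma p under 0.05, where 12.7% of all genes did. Of all 19937 genes 9186 lay below 0. The eIF3 subunit gene Eif3d had the greatest difference, -0.31 (SE 0.086, adjusted p = 0.166). Ifitm proteins act where viruses enter through endosomes. Of 13 measured genes of their partners and of endosomal entry 0 passed, the median was 0.10 and 3 had an unadjusted p under 0.05. The endosomal cholesterol transporter gene Npc1 was at 0.47 (SE 0.095, adjusted p = 0.0801).

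Likeness to each family was taken over the 6 arrays as the root mean square distance between a gene's log2 deviations from its own mean and the average deviations of the family. The genes nearest to the Ifit family were Lgals3bp (distance 0.068), Eif2ak2 (0.11), Stc2 (0.12), Tnfrsf9 (0.13) and Gm12250 (0.13), where the median of all genes was 0.46. These genes were searched out by a profile that holds the fall itself, so their falls follow from the search. Lgals3bp, a secreted glycoprotein gene, fell from 594 ± 73.2 to 303 ± 23.3 (SD, n = 3 each). Eif2ak2, which encodes the RNA-activated kinase PKR, fell from 344 ± 50.1 to 192 ± 23.4. Both are interferon-induced, whereas Stc2, a secreted glycoprotein hormone, and Tnfrsf9, the costimulatory receptor 4-1BB, are in neither list. Lgals3bp lay nearer to the family's average than Ifit3 (0.10), Ifit2 (0.24) and Ifit1 (0.26) did themselves. The nearest gene of a search over all genes can do so by the search alone. The falls of Lgals3bp and Tnfrsf9 missed the threshold without UNC0638 1 or 2, that of Lgals3bp also without DMSO 2, that of Stc2 without UNC0638 1, and that of Eif2ak2 without each array except DMSO 1 (adjusted p from 0.0534 to 0.143 over these). For the Ifitm family the nearest were Pramel23 (0.036), Icam4 (0.036), Cntd1 (0.037), Pxmp4 (0.043) and COX2 (0.046), against a median of 0.19. Its profile is nearly flat, so genes near it could hardly pass, and none of these 5 passed the limma threshold.

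The labelled progenitor state was checked against markers of immature myeloid cells. Mpo, Elane, Kit and Cd34 had mean DMSO intensities of 6031, 4770, 351 and 1615, and of 15 such markers 0 passed. A few markers of mature cells rose past the threshold with the treatment, beside 0.371% of all genes, and more lay higher without passing it. An unadjusted limma p under 0.05 was found for 9 of 12 macrophage, 6 of 12 neutrophil and 3 of 15 immature markers. Among all genes that share was 12.7%. The 3 immature ones, Cd34, Ptprc and Csf1r, also lay higher, and Csf1r is counted among the macrophage markers as well. Of the macrophage markers 1 lay below 0, of the neutrophil markers 0 and of the 15 immature markers 6. Of 12 measured macrophage markers 3 rose (Itgax, Mpeg1 and Gpnmb) and the median difference was 0.49, with a summed intensity of 6694 to 8373 in DMSO and 10418 to 10983 in UNC0638. Of 12 mature neutrophil markers 2 rose (Ltf and Cxcr2) and the median was 0.26, with sums of 15209 to 15869 and 17070 to 20206. Their part in the Ifit and Ifitm values was not tested, and in bulk RNA fewer cells that express a gene cannot be told from less RNA per cell. Of 6 measured markers of plasmacytoid dendritic cells, a main source of interferon, only the interferon-induced Bst2 passed. Siglech, which defines them, read 40.6 in DMSO and 40.7 in UNC0638, and the sums were 1097 to 1370 and 939 to 962. Without Bst2 the sums were 584 to 615 in DMSO and 624 to 665 in UNC0638. T cell (5 measured), B cell (6) and erythroid (4) markers had 0 genes past the threshold, and their sums ran from 161 to 166, 212 to 234 and 182 to 208 in DMSO and from 174 to 209, 236 to 246 and 197 to 216 in UNC0638.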

How the data were processed

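Expression was read from the table the authors deposited, which gives 1 processed intensity per probe set and array on a linear scale. How they were summarised, background-corrected and scaled between arrays is not given in the sources used here. Array medians ran from 50.4 to 54.9, close but not equal. RNA was extracted with Trizol and biotinylated cRNA was hybridised, per the labels' protocols. Of 34760 probe sets, 21640 carry 1 gene symbol, 1321 several and 11799 none. Those with 1 symbol gave 19937 genes, 954 of them with more than 1 probe set.

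Values were transformed as log2(intensity + 16), which understates the change of dim genes. UNC0638 was compared with DMSO by lmFit and eBayes in limma 3.58.1 (R 4.3.3), two-sided, and called at 0.05 after Benjamini-Hochberg adjustment of all 19937 p-values. Intervals are at 95%, on 8.47 degrees of freedom. The members, the gene lists and the rule for named genes were chosen with earlier results of these data known. The rule names the members, the other family genes, 4 neighbours on each side of each cluster, up to 4 falls and 4 rises per pathway list (or the greatest difference) and the 5 genes most like each family. The other effectors, signalling genes and markers named were picked after their values were seen. Promoter windows are RefSeq's, and windows were aligned with Biopython 1.88. Figures were drawn with matplotlib 3.10.9.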

Additional observations from a re-analysis of the deposited data

How the results depend on the processing

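The settings tried were pseudocounts of 1 and 64, quantile normalization, median centring, leaving out the dimmest 40% of genes, averaging a gene's probe sets, a trended robust prior, a block for the replicate number, each array left out in turn and, chosen after seeing the data, each single-gene probe set as its own test. The 0 calls among the Ifitm genes held under all of them, and so did the sign of Ifit1, Ifit2, Ifit3, Ifitm1 and Ifitm6. Most settings could not turn a sign. The filter, the trended prior, the replicate block and the test of each probe set leave a gene's difference as it is. For Ifit1, Ifit2 and Ifit3, whose groups do not overlap, neither a pseudocount nor a left-out array could turn it. With a pseudocount of 64 Ifit1 was at -0.77 and Ifit3 at -0.46, neither called, so the Ifit genes called were 0, the signalling genes 1 and the effectors 2. The filter on dim genes removed Ifit3, which left 1 Ifit gene called. Under quantile normalization Ifitm3 turned to 0.0018 and 5 effectors were called, and with each probe set tested 4. Leaving out 1 array gave -1.49 to -1.16 for Ifit1, -0.95 to -0.74 for Ifit3, -0.59 to -0.36 for Ifit2, 0.18 to 0.47 for Ifitm6, -0.12 (without UNC0638 1) to 0.25 (without UNC0638 3) for Ifitm2, and 0 to 1 Ifit genes, 0 to 4 signalling genes and 1 to 6 effectors called. Of all genes 134 were called as designed, 49 with a pseudocount of 64 and 10 to 69 with 1 array left out. The cause of these changes was not tested.

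The labels do not say whether same-numbered samples of the groups were paired. Their deviations correlated at -0.066, 0.11 and 0.017 across genes, which are not independent. Samples with unlike numbers correlated at -0.13 to 0.11. With so few arrays these values cannot decide whether samples were paired. With the replicate block Ifit3, at -0.85, was no longer called (adjusted p = 0.067), which left 1 Ifit gene and 4 effectors called. Of all genes 73 were called with the block, beside 134 as designed. The number of arrays limits the precision.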
